A study of Mus musculus with 8 samples.

Results

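Pluripotency and primordial germ cell genes were examined in whole E11.5 mouse embryos, taken at midgestation, whose parents carried an allele that lowers the expression of Ott1 (current symbol Rbm15, an RNA-binding protein). The set holds 10 genes, namely Dppa5a, Dppa2, Dppa3, Dppa4, Pou5f1, Nanog, Dazl, Ddx4, Dnd1 and Nanos3. A gene probe was matched to 9 of the 10 through its RefSeq transcript, out of 13971 named genes on the array, and each of the 9 had 1 probe. No probe was matched to Nanog, which is not analysed here. Of the 9 genes, 6 passed the filter on dim probes and were tested. Dppa5a was chosen by its measured level, which is lower in homozygous embryos, so its values in homozygous against other embryos are a description without a test. The other 9 genes were named for their known roles, with the question whether they follow Dppa5a.

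The groups were 3 embryos homozygous for the low-expression allele (embryos 2, 7 and 16), 3 heterozygous embryos (3, 10 and 15) and 2 wild type embryos (11 and 13). Each array held the RNA of 1 embryo, and the labels give no strain, litter or sex. No probe was matched to Rbm15, so the lowered dose itself was not checked on these arrays.

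Primordial germ cells are the embryonic founders of eggs and sperm. They are set aside early in the epiblast, migrate through the hindgut and reach the genital ridges at about the stage sampled here. They keep or regain much of the pluripotency network of the early embryo, with Pou5f1 (Oct4), Nanog, Dppa3 and the Dppa2 and Dppa4 pair, and they use RNA-binding proteins such as Nanos3, Dnd1, Dazl and Ddx4 (mouse Vasa) to survive and to enter the germline programme. They are a very small share of a whole embryo, so their transcripts are diluted in such RNA. In whole embryos, fewer cells of a type and less RNA per cell cannot be told apart.

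The median background-corrected intensity of the gene probes was 61.4, 61.5 and 87.9 in homozygous embryos 2, 7 and 16, against 48.3 to 57.6 in the 5 other embryos, so array brightness and homozygosity cannot be told apart. Embryo 16 stood apart from the rest. The 95th percentile of its 320 negative control spots was an intensity of 117, against 30.4 in embryo 2, 17.4 in embryo 7 and 14.3 to 15.6 in the 5 other embryos, and 2571 gene probes were above background in embryo 16 alone, against 120 to 225 probes in each of the other 7 embryos alone. The mean log2 level of the Y-linked probes was 4.04 in homozygous embryo 16 and 5.03 and 4.34 in heterozygous embryos 3 and 15, against 6.82 to 7.11 in the 5 remaining embryos.

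The 9 genes fell into 3 patterns. After normalization, Dppa5a, Dnd1 and Ddx4 were lower in all 3 homozygous embryos than in any other embryo, as were 9.69% of all probes tested. Dppa5a was chosen for this fall, and before normalization the homozygous intensities of each of these genes overlapped the others. Pou5f1, Nanos3 and Dppa4 were above background on every array where the spot was measured, and their homozygous values overlapped those of the other embryos. In embryo 16 the Dppa4 intensity of 122 was close to the 117 of the negative control 95th percentile, and the Nanos3 spot was left out. Dppa3, Dppa2 and Dazl were at or near background in most embryos. None of the 5 tested genes besides Dppa5a passed the threshold of an adjusted p under 0.05 in any of the 4 comparisons made. Dppa5a was past the threshold in homozygous against the 5 other embryos, but it was chosen by that contrast, so this carries no weight as a test. Dppa5a was not past the threshold against heterozygous or wild type embryos alone.

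**Figure D1:**
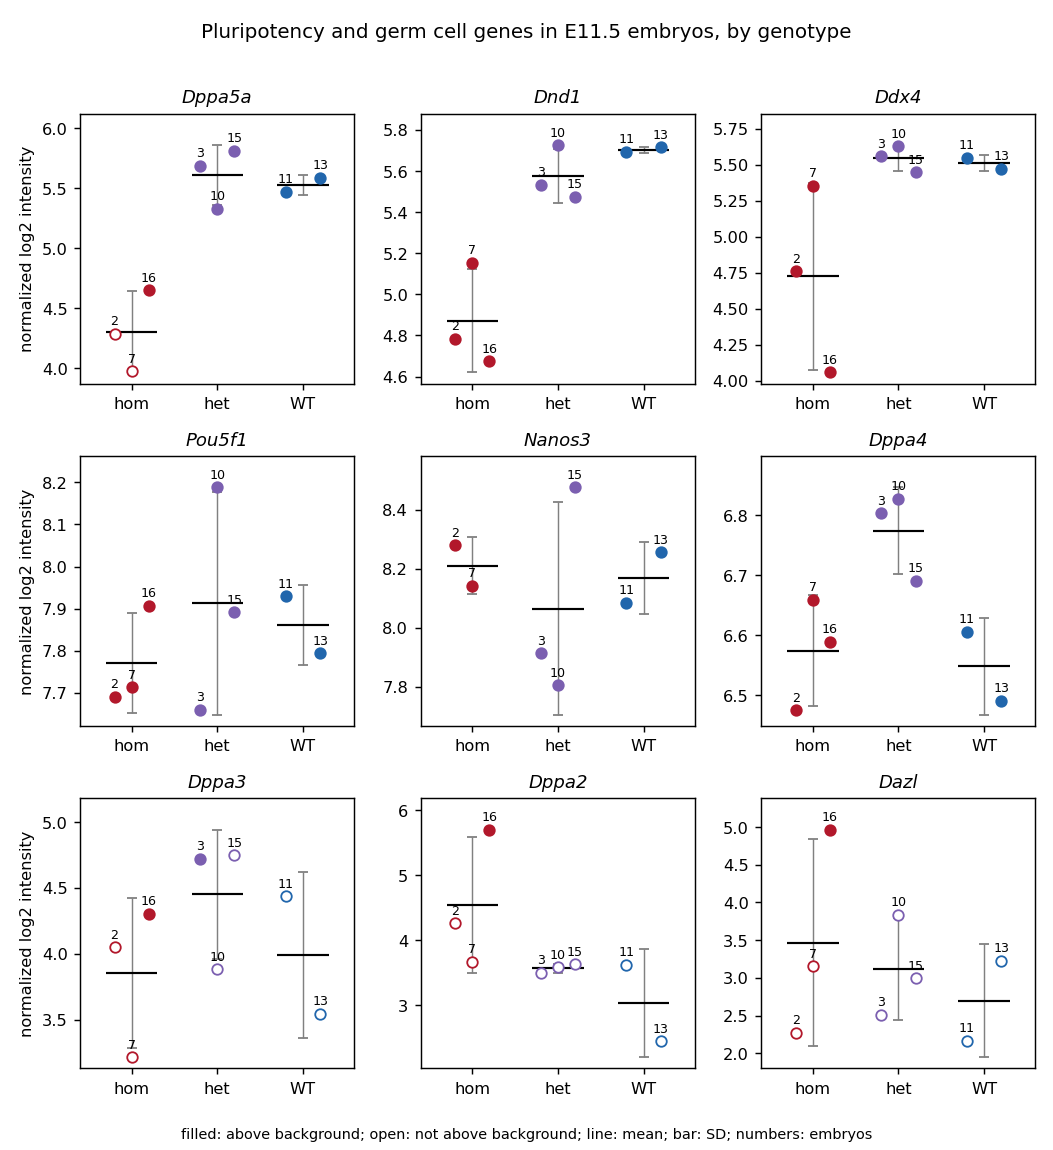
Normalized log2 intensity (vertical axes, 1 scale per gene) of the 9 genes with a probe, by genotype (hom, homozygous; het, heterozygous; WT, wild type); each point is 1 embryo, with its number, lines are means and bars SD, and open points were not above background. For Dppa5a, Dnd1 and Ddx4 the 3 homozygous points lie below all others, as in 9.69% of all probes tested. For Dppa2 and Dazl the only filled point is homozygous embryo 16.

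Dppa5a encodes a small KH-domain RNA-binding protein that is abundant in mouse embryonic stem cells and early germ cells. Its normalized log2 intensity was 4.29, 3.97 and 4.65 in homozygous embryos 2, 7 and 16. It was 5.69, 5.33 and 5.81 in heterozygous embryos 3, 10 and 15, and 5.47 and 5.59 in wild type embryos 11 and 13. The homozygous values were all below the others, while the heterozygous and wild type values overlapped. Set against the 5 other embryos together, the homozygous ones had a log2 difference of -1.27 (SE 0.17), which rests on 2 homozygous spots that were not above background, so no fold is given. It was -1.31 (SE 0.20) against heterozygous and -1.22 (SE 0.22) against wild type embryos, and these 3 differences share the homozygous arrays. Across all probes tested, 0.107% passed the threshold in homozygous against other embryos, and Dppa5a was among them by its choice. The contrast of heterozygous with wild type embryos was not used in choosing the gene. There Dppa5a averaged 5.61 ± 0.25 in heterozygous and 5.53 ± 0.09 in wild type embryos (SD over 3 and 2 embryos), a difference of 0.08 (95% interval -0.44 to 0.60, limma adjusted p = 0.9999). The sign of that small difference turned with a Y-linked covariate and without embryo 15.

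The Dppa5a probe was dim. It was above background in 1 of 3 homozygous embryos, embryo 16, and in all 5 others, so it passed the filter through the groups where it is high. Before normalization its intensity was 18.2, 14.8 and 42.8 in homozygous embryos 2, 7 and 16, against 50.03, 32.2 and 46.1 in heterozygous and 41.4 and 45.6 in wild type embryos. Embryos 2 and 7 were thus low on the unnormalized scale too, whereas embryo 16 lay within the range of the others and was below them only after normalization. In all 3 homozygous embryos the intensity was under the 95th percentile of that array's negative control spots, and in all 5 others it was above it. Without embryo 16 the difference from the other embryos was -1.53.

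Dnd1 (dead end) is an RNA-binding protein that germ cells need to survive, and its loss in the mouse depletes the gonad of them. Its log2 intensity was 4.78, 5.15 and 4.68 in homozygous embryos 2, 7 and 16, against 5.53, 5.73 and 5.47 in heterozygous embryos 3, 10 and 15 and 5.69 and 5.71 in wild type embryos 11 and 13. It was above background on every array, and no homozygous value reached the lowest of the others. The difference from the 5 other embryos was -0.76 (SE 0.13, 1.69-fold lower) with a limma adjusted p of 0.0757, which did not pass. It was -0.71 (SE 0.15, adjusted p = 0.332) against heterozygous and -0.83 (SE 0.17, adjusted p = 0.175) against wild type embryos. Heterozygous and wild type embryos differed by -0.13 (95% interval -0.51 to 0.26).

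Ddx4 (Vasa) is a germline RNA helicase of the germ granule whose transcription begins in mouse germ cells about when they colonise the genital ridge. Its log2 intensity was 4.76, 5.36 and 4.06 in homozygous embryos 2, 7 and 16, against 5.56, 5.63 and 5.45 in heterozygous embryos 3, 10 and 15 and 5.55 and 5.47 in wild type embryos 11 and 13. Homozygous embryo 7 lay just under the other embryos and embryo 16 was far below them, so the homozygous SD of 0.65 exceeded the 0.07 of the 5 others. The difference was -0.81 (SE 0.24, 1.75-fold lower, limma adjusted p = 0.164) and did not pass. It was -0.82 (SE 0.29, adjusted p = 0.3995) against heterozygous and -0.79 (SE 0.32, adjusted p = 0.312) against wild type embryos. Heterozygous against wild type gave 0.03 (95% interval -0.72 to 0.78).

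Homozygous embryo 7 had the values closest to the other embryos for both genes. Without it Dnd1 passed at -0.89 (adjusted p = 0.0208, against 0.0399 to 0.244 over the other alternatives) and Ddx4 passed at -1.11 (adjusted p = 0.0384, against 0.091 to 0.33). In the fit without embryo 7, 314 probes passed in all, against 25 with it, and without heterozygous embryo 15 or wild type embryo 13 only 5 passed, and 6 without wild type embryo 11. Dnd1 also passed with the Y-linked level as a covariate (-0.75, adjusted p = 0.0399). Without embryo 16 the differences were -0.69 for Dnd1 and -0.50 for Ddx4, and Ddx4 was also -0.29 with an offset of 50 added to the intensities, where Dnd1 was -0.31.

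Before normalization neither gene separated the genotypes fully. Dnd1 had intensities of 26.7, 35.6 and 43.4 in homozygous embryos 2, 7 and 16, against 44.8, 42.9 and 36.9 in heterozygous and 48.7 and 50.2 in wild type embryos. Ddx4 had 26.2, 41.2 and 31.3 in homozygous embryos, against 45.6, 40.0 and 36.2 in heterozygous and 43.8 and 41.9 in wild type embryos. Homozygous embryo 16 overlapped the others for Dnd1 and embryo 7 did so for Ddx4. In homozygous embryos 2 and 16 both genes were under the 95th percentile of the negative control spots, and in embryo 7 and the 5 other embryos both were above it. The part of the brighter homozygous arrays in these differences was not tested.

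**Figure D2:**
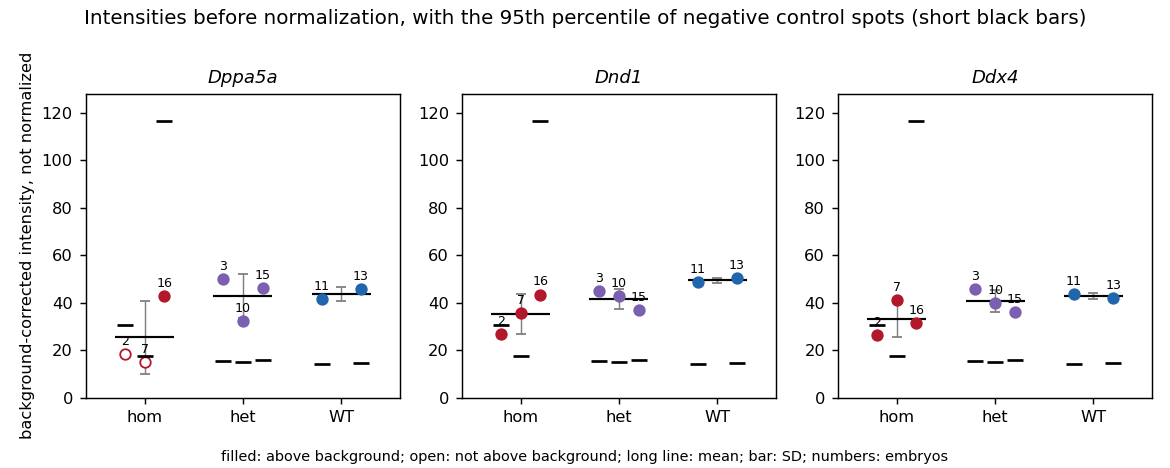
Background-corrected intensity before normalization (vertical axes, from 0) of Dppa5a, Dnd1 and Ddx4 by genotype (hom, homozygous; het, heterozygous; WT, wild type); points are embryos, long lines means, thin bars SD, and short black bars the 95th percentile of each array's negative control spots. The bar of embryo 16, at 117, lies above all its points, while in the 5 heterozygous and wild type embryos every point lies above its own bar.

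Among all probes tested, 9.69% had all 3 homozygous values below the 5 others and 4.96% had them above. Of the 5 tested genes other than Dppa5a, Dnd1 and Ddx4 were below and none was above. At an unadjusted limma p under 0.05, 20% of all probes passed in homozygous against other embryos, and so did Dnd1 (0.000269) and Ddx4 (0.00937) of the 5 tested genes besides Dppa5a. The median difference of all 23388 probes tested was -0.06, and that of the 6691 dim ones, with a mean log2 level under 6, was -0.16. In homozygous against heterozygous embryos 0.0214% of probes passed and 11.6% had an unadjusted p under 0.05. Against wild type these shares were 0.0342% and 15.3%. Heterozygous against wild type gave 0% past the threshold and 2.3% at an unadjusted p under 0.05.

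Pou5f1 (Oct4), the central transcription factor of pluripotent and early germ cells, had log2 intensities of 7.69, 7.71 and 7.91 in homozygous embryos 2, 7 and 16, against 7.66, 8.19 and 7.89 in heterozygous and 7.93 and 7.79 in wild type embryos. The groups overlapped, and both the lowest and the highest value were heterozygous. The difference between homozygous and other embryos was -0.12 (95% interval -0.41 to 0.17, limma adjusted p = 0.61).

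Nanos3, an RNA-binding repressor that keeps migrating germ cells alive, was one of the brighter probes of the set. It measured 8.28 and 8.14 in homozygous embryos 2 and 7, against 7.91, 7.81 and 8.48 in heterozygous and 8.08 and 8.26 in wild type embryos. The spot of homozygous embryo 16 was marked as contaminated and was left out, so 2 homozygous embryos entered the fit. The difference was 0.10 (95% interval -0.33 to 0.54, adjusted p = 0.776), and its sign turned when marked spots were kept.

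Dppa4, a chromatin-binding SAP-domain protein of pluripotent cells, had log2 intensities of 6.47, 6.66 and 6.59 in homozygous embryos 2, 7 and 16, against 6.80, 6.83 and 6.69 in heterozygous and 6.61 and 6.49 in wild type embryos. The heterozygous embryos were the highest of the 3 groups, and homozygous and wild type embryos overlapped. Homozygous against the 5 other embryos gave -0.11 (95% interval -0.35 to 0.13, adjusted p = 0.575). Heterozygous against wild type gave 0.23 (95% interval -0.05 to 0.50), the largest heterozygous difference of the 6 genes tested, with an unadjusted p of 0.0906.

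**Figure D3:**
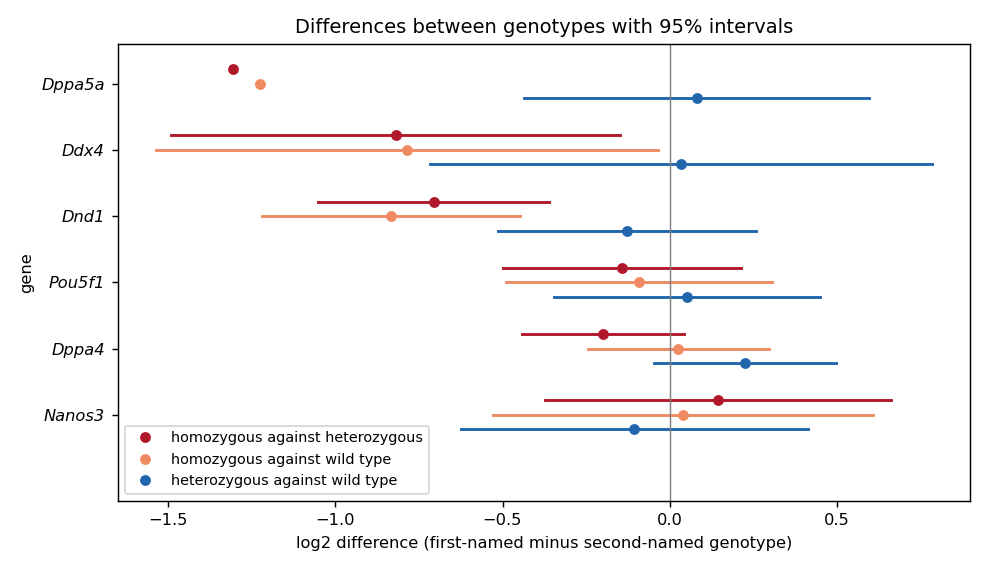
Log2 differences between pairs of genotypes (horizontal axis; points, with 95% intervals of the limma fit as lines) for the 6 tested genes; the homozygous contrasts of Dppa5a, which was chosen by them, have no interval. The intervals of homozygous against heterozygous and against wild type lie below 0 for Ddx4 and Dnd1 and span 0 for Pou5f1, Dppa4 and Nanos3. They are not adjusted for the number of probes, and neither gene passed the adjusted threshold in these comparisons. Of all probes 11.6% and 15.3% had an unadjusted limma p under 0.05 against heterozygous and against wild type. The intervals of heterozygous against wild type span 0 for all 6.

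Dppa2, the partner and chromosomal neighbour of Dppa4, was not above background in any of the 5 heterozygous and wild type embryos. Its log2 intensity was 4.26, 3.67 and 5.70 in homozygous embryos 2, 7 and 16, against 3.50, 3.58 and 3.63 in heterozygous and 3.62 and 2.45 in wild type embryos. Only embryo 16 was above background, at an intensity of 76.2 that lay under the 95th percentile of its negative control spots. All 3 homozygous values were above all others, but only 1 of the 8 was marked as above background, so the probe was not tested.

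Dazl, an RNA-binding protein that licenses germ cells for meiosis and gametogenesis once they reach the gonad, had log2 intensities of 2.27, 3.15 and 4.97 in homozygous embryos 2, 7 and 16, against 2.51, 3.84 and 2.99 in heterozygous and 2.17 and 3.23 in wild type embryos. It too was above background only in embryo 16, at an intensity of 50.6, under the same percentile. The other homozygous values lay among those of the other groups.

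Dppa3 (Stella), a maternal and germ cell factor that protects the methylation of the maternal genome in the zygote, was above background in homozygous embryo 16 and heterozygous embryo 3 and in no other embryo. It measured 4.05, 3.22 and 4.30 in homozygous embryos 2, 7 and 16, against 4.72, 3.88 and 4.75 in heterozygous and 4.44 and 3.55 in wild type embryos. The groups overlapped. At these intensities no difference between the genotypes was detectable for Dppa3 or Dazl.

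The presence of germ cells in the samples was checked with 13 markers of primordial germ cells. Of 11 with a probe, 9 were above background on every array where the spot was measured, and the exceptions were Dppa3 and Dazl. Several of the 9 are also made by other embryonic cells, among them Kit, Alpl, Ifitm3, Prdm1 and Tfap2c. Of all 34967 gene probes, 19133 were above background on all 8 arrays. The count of 9 alone therefore does not show that germ cells were present. Ddx4 and Dnd1 lay under the negative control percentile given above in homozygous embryos 2 and 16. In embryo 2 they had intensities of 26.2 and 26.7 against 30.4, and in embryo 16 of 31.3 and 43.4 against 117. In the other embryos both lay above it.

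Genes that act with the set were taken as lists. Of 15 genes of germ cell specification, surface and migration, 9 were tested, and 0 rose and 0 fell in homozygous against other embryos by limma. At an unadjusted p under 0.05, which 20% of all probes passed, there were 0. Their median difference was 0.17, with 8 positive, against a median of -0.06 over all probes and -0.16 over dim ones. The share of positive differences over all probes was not computed, nor was the median of probes as bright as these. The mean log2 level of the 9 genes was 9.03 to 9.31 in homozygous, 8.84 to 9.11 in heterozygous and 8.93 to 8.95 in wild type embryos, and heterozygous and homozygous embryos overlapped. Alpl, the tissue-nonspecific alkaline phosphatase used to stain germ cells, had a difference of 0.30 (SE 0.14, adjusted p = 0.271). Prdm1 (Blimp1), which starts germ cell specification, had 0.37 (SE 0.18, adjusted p = 0.29), and Cxcr4, the receptor that guides migration, had 0.27 (SE 0.15, adjusted p = 0.322). The brightest of the list, the interferon-induced membrane protein genes Ifitm1 and Ifitm3, had 0.43 (SE 0.37) and -0.08 (SE 0.11).

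Of 24 further pluripotency network genes 14 were tested, and 0 rose and 0 fell, with 1 at an unadjusted p under 0.05, which 20% of all probes passed. That gene was Gdf3, a Nodal-related ligand, with log2 levels of 4.72, 4.41 and 4.79 in homozygous embryos 2, 7 and 16, against 5.03, 4.84 and 5.004 in heterozygous and 5.14 and 5.14 in wild type embryos. All homozygous values were below all others, as in 9.69% of all probes tested, by 0.39 on average (SE 0.12, adjusted p = 0.167). Gdf3 was above background in 2 of the 3 and 4 of the 5, so it entered the test through a heterozygous or wild type group, where it is higher. Esrrb, an orphan nuclear receptor of naive pluripotency, had a difference of -0.33 (SE 0.16, adjusted p = 0.289). Lin28a, the let-7 inhibitor that is broadly expressed in the embryo, had 0.73 (SE 0.37, adjusted p = 0.298), and Klf2 had 0.08 (SE 0.10). The median of this list was 0.02, with 7 genes negative and 7 positive.

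Of 36 later germline genes, of the piRNA pathway, germ granules and meiosis, 10 were tested, and 16 more had a probe that did not pass the filter. Among the 10, 0 rose and 0 fell, and 3 were lower at an unadjusted p under 0.05, which 20% of all probes passed in either direction. The mean log2 level of the 10 genes was 6.53 to 6.65 in homozygous, 6.72 to 6.94 in heterozygous and 6.83 to 6.90 in wild type embryos. The homozygous embryos did not overlap the others, but this mean includes Rec8, the gene with the largest fall, and was not computed without it. Of single probes 9.69% had all 3 homozygous values below the 5 others, and no such share was computed for means of 10 genes. Rec8, the meiotic cohesin subunit, had log2 levels of 3.77, 4.15 and 4.63 in homozygous embryos 2, 7 and 16, against 4.62, 5.70 and 6.30 in heterozygous and 5.85 and 6.02 in wild type embryos. It was above background in 1 of 3 homozygous and 5 of 5 other embryos, so it entered the test through the groups where it is high. Embryo 16 just overlapped heterozygous embryo 3, and the fitted difference of -1.51 (SE 0.36, adjusted p = 0.131) rests in part on spots not above background. Tex15, which acts in meiotic recombination and piRNA-directed silencing, measured 7.57, 6.99 and 7.43 in homozygous embryos, against 8.12, 7.68 and 7.99 in heterozygous and 7.86 and 7.95 in wild type embryos. The homozygous values were below all others and differed from them by -0.59 (SE 0.15, adjusted p = 0.141). Piwil1 (Miwi), a piRNA-binding Argonaute protein, had -0.49 (SE 0.20, adjusted p = 0.232), while the brightest 2, Tex19.2 and Fkbp6, had -0.05 (SE 0.09) and -0.06 (SE 0.09). The median of the list was -0.11.

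Dppa5a belongs to a small mammalian family of KH-domain genes whose other members act in the oocyte. Of 8 relatives and partners 2 were tested, and 0 rose and 0 fell. At an unadjusted p under 0.05, which 20% of all probes passed, there was 1. Ooep, a component of the subcortical maternal complex of the egg, is the next protein-coding gene to Dppa5a in the gene list of the assembly used for names. Its log2 level was 6.23, 6.51 and 5.75 in homozygous embryos 2, 7 and 16, against 7.16, 7.37 and 8.01 in heterozygous and 7.82 and 7.85 in wild type embryos, and it was above background on all 8 arrays. The homozygous values were all below the others, as in 9.69% of all probes tested. The difference was -1.48 (SE 0.24) with a limma adjusted p of 0.0708, which did not pass. Over 21 alternatives the Ooep difference ran from -1.65 to -1.01, and it passed in 7 of them, median scaling (adjusted p = 0.0373) and the deposited value table (adjusted p = 0.0316) among them, and without embryo 7 (adjusted p = 0.0339). Padi6, a peptidylarginine deiminase of the same egg structures, had -0.13 (SE 0.08, adjusted p = 0.42).

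The other protein-coding genes within 5 places of Dppa5a were looked at after the value of Ooep had been seen. Cgas, the cytosolic DNA sensor, had a difference of -0.25 (SE 0.11, adjusted p = 0.2475). Mto1, a mitochondrial tRNA-modifying enzyme, had 0.37 (SE 0.44), and Eef1a1, the translation elongation factor, had 0.28 (SE 0.18). Gsta2 was above background on 0 arrays, and the remaining neighbours had no probe.

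**Figure D4:**
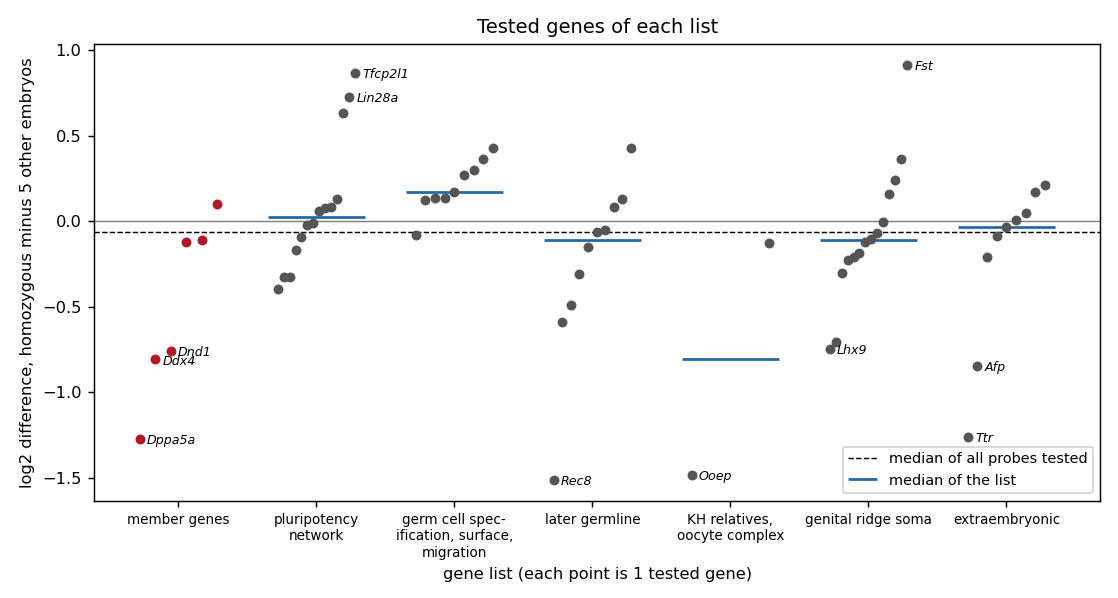
Log2 difference of homozygous minus the 5 other embryos (vertical axis) for each tested gene of the set (red) and of the 6 lists (grey, 1 column per list, sorted by value); blue lines are the medians of the lists and the dashed line is the median of all probes tested, -0.06. Ooep lies at -1.48, and the points of Rec8 and Dppa5a rest in part on homozygous spots not above background. Of the 9 genes of germ cell specification, surface and migration 8 lie above 0, and the share above 0 was not computed over all probes.

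Markers of the tissues that could move with the set were measured beside it. Of 19 somatic genital ridge genes 14 were tested, and 0 rose and 0 fell. At an unadjusted p under 0.05, 2 were higher and 2 lower, and 20% of all probes passed that level in either direction. Their median was -0.11, with 10 genes negative and 4 positive. Wnt4, a signal of the early gonad and kidney, had 0.36 (SE 0.11, adjusted p = 0.171), and Fst, the activin inhibitor follistatin, had 0.92 (SE 0.30, adjusted p = 0.181). Dhh, a Hedgehog ligand, had a fitted -0.71 (SE 0.22, adjusted p = 0.17). Dhh was above background in only 1 of 3 homozygous and 3 of 5 other embryos, so it entered the test through a group where it is higher. The brightest of the list, Tcf21 and Rspo1, had 0.00 (SE 0.11) and 0.24 (SE 0.12). The fitted differences of the genes set as markers of ridge somatic cells were all negative, beside a median of -0.06 over all probes. Among them Lhx9 had -0.75 (SE 0.33, limma adjusted p = 0.2475), Wt1 -0.30 (SE 0.33) and Nr5a1 -0.23 (SE 0.10). Of these markers only Nr5a1 had all homozygous values below the others, as did 9.69% of all probes tested. Lhx9 was at 5.38 in homozygous embryo 16, against 6.64 and 6.94 in embryos 2 and 7. Wt1 was above background in 2 of 3 homozygous and 3 of 5 other embryos. Wt1 thus entered the test through a heterozygous or wild type group, where it is higher. Emx2 had -0.19 (SE 0.17) and Gata4 -0.07 (SE 0.10). The mean log2 level of the 14 genes was 7.11 to 7.27 in homozygous, 7.17 to 7.28 in heterozygous and 7.29 to 7.37 in wild type embryos.

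Of 16 extraembryonic genes of yolk sac endoderm and trophoblast 9 were tested, and 0 rose and 0 fell. At an unadjusted p under 0.05, which 20% of all probes passed in either direction, 2 were lower. The carrier protein gene Ttr, with -1.26 (SE 0.22, adjusted p = 0.0855), Afp, with -0.84 (SE 0.30, adjusted p = 0.194), and Rbp4, with -0.21 (SE 0.10, adjusted p = 0.273), are also made by the fetal liver. The mean of the 9 genes was 7.59 to 7.87 in homozygous, 7.86 to 8.09 in heterozygous and 7.95 to 8.08 in wild type embryos. The trophoblast marker Prl3d1 and the yolk sac marker Amn were above background on 0 arrays, and Tpbpa and Apoa4 on 1 each. The trophoblast markers Plac1 and Ascl2 were above background on all 8 arrays, with differences of 0.05 (SE 0.22) and 0.21 (SE 0.15). The part of these tissues in the differences of the set was not tested.

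The genes whose values over the 8 embryos were most like those of Dppa5a were sought among 10838 named probes, by Pearson's correlation and as a description only. The first was Ist1, an endosomal sorting protein gene, with r = 0.99. Dbr1, the lariat debranching enzyme (0.98), Med27, a Mediator subunit (0.97), the odorant receptor gene Olfr1495 (0.97) and Gphn, the synaptic scaffold gephyrin (0.97), followed. These genes share with Dppa5a the split between homozygous and other embryos. Ist1 was at 8.65, 8.54 and 8.68 in homozygous embryos 2, 7 and 16, against 8.99, 8.91 and 9.03 in heterozygous and 8.96 and 9.01 in wild type embryos. Its range was much narrower than that of Dppa5a, with a difference of -0.36 (SE 0.08, adjusted p = 0.123).

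With the mean of each genotype taken out, the most similar were the purinergic receptor P2rx4, the chaperone Dnajc7, the phosphatase Inpp1, Fam210b and the synaptic protein Clstn3, with r from 0.97 to 0.99, and their differences between homozygous and other embryos lay between -0.13 and 0.26. No germ cell gene of the set was among either 5. Dnd1 and Ddx4 had r = 0.91 with each other over the 8 embryos and 0.88 with the genotype means taken out. Both were lowest in homozygous embryos 2 and 16, where both lay under the 95th percentile of the negative control spots. How often other pairs of probes are as correlated was not computed. Dppa5a correlated with Dnd1 at 0.76 and with Ddx4 at 0.54 over all embryos, but at -0.93 and -0.87 within genotypes. Among homozygous embryos, embryo 7 was the lowest for Dppa5a and the highest for Dnd1 and Ddx4, and embryo 16 was the highest for Dppa5a and the lowest for the other 2.

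**Figure D5:**
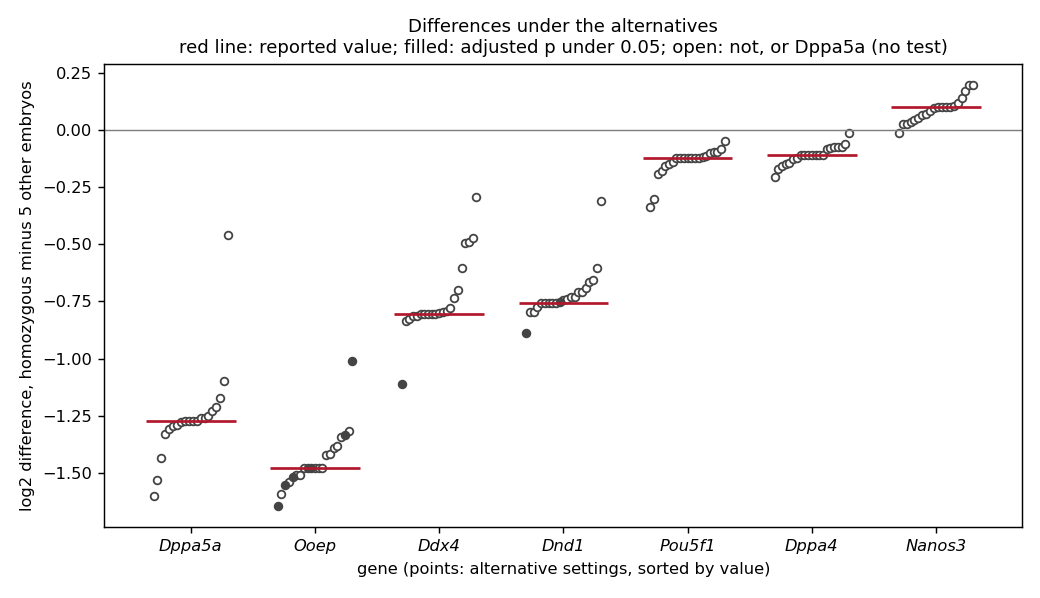
Log2 difference of homozygous minus the 5 other embryos (vertical axis) for the 6 tested genes and Ooep under each alternative setting (points, sorted by value within a gene; filled where the adjusted p was under 0.05, with Dppa5a open throughout as it was chosen by this contrast) and as reported (red lines). Dppa5a, Ooep, Ddx4 and Dnd1 are below 0 under every alternative run, as are Pou5f1 and Dppa4 at smaller size, and Nanos3 is at -0.01 once.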

How the data were processed

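Per the file headers and values, each deposited array file gives an intensity that the authors had background-corrected, that is, the mean of the spot less the median of its local background. The deposited value table holds the same values divided by 1 factor per array (48.6 to 88.5). The scanner software is not given in the sources used here, nor is a genome build. Spots were joined by probe identifier. Control spots were left out, and 206 to 1634 marked gene spots per array were set missing.

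The intensities were quantile normalized, floored at the 5th percentile of positive values (4.50) and put on the log2 scale. A probe was tested if 1 or more genotypes had it above background on each of their arrays (23389 of 34967). Models were fitted with limma 3.58.1 (lmFit, eBayes, two-sided) in R 4.3.3 over all 8 arrays, with Benjamini-Hochberg adjustment over all tested probes and a threshold of 0.05. The method was tested on simulated data. The number of arrays limits the precision. Replicates are separate embryos.

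RefSeq accessions gave a symbol for 14763 probes through the GRCm38.p6 gene list, used for names and gene order. For a gene with several probes the brightest stood for it. The rule named every member, and of each list the genes past the threshold or else the 3 with the smallest p and the brightest 2. The members and lists were chosen with earlier results of these data known. The alternatives were other normalizations, floors, filters, variance models, a Y-linked covariate, and embryos left out.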

Additional observations from a re-analysis of the deposited data

Results flagged for a closer look

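Dppa2 and Dazl gave a signal above background in homozygous embryo 16, at log2 levels of 5.70 and 4.97, while neither was above background in the 5 heterozygous and wild type embryos. Neither probe passed the filter. With no filter, homozygous against other embryos gave 1.19 for Dppa2 (limma adjusted p = 0.34, unadjusted 0.0394) and 0.52 for Dazl (adjusted p = 0.719), neither past the threshold. Embryo 16 had 2571 gene probes above background that were so in no other embryo, and both intensities lay under the 95th percentile of its negative control spots. Among the 5 heterozygous and wild type embryos, wild type embryo 13 stood apart for Dppa2, at a log2 level of 2.45 against 3.50 to 3.63 in the 4 others (Dixon ratio 0.89, above the critical value of 0.71). Of 9 gene probes 1 was picked out in this way, where chance picks about 1 in 20, and the Dppa2 probe was not above background on any of these 5 arrays.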

How the results depend on the processing

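The difference of Dppa5a between homozygous and other embryos was negative in all 20 alternatives that kept the probe, and it moved by more than the spread between embryos with normexp and an offset of 50 (-0.457), without embryo 16 (-1.53) and without embryos 10 and 16 together (-1.60). Leaving out 1 embryo gave -1.53 to -1.10. The adjusted p of Dppa5a there, given no weight as a test, missed the threshold in 8 of the 20. These were median scaling, cyclic loess, no filter, and without embryo 2, 3, 15, 11 or 13. Against heterozygous embryos the same 3 settings gave -0.473, -1.57 and -1.72, with -1.57 to -1.13 on leaving out 1 embryo. Against wild type they gave -0.432, -1.48 and -1.49, with -1.48 to -1.05. The offset shrinks differences of dim probes by construction. The small heterozygous difference of Dppa5a turned to -0.186 with the Y-linked covariate, and leaving out 1 embryo gave -0.0196 to 0.22. The Nanos3 difference turned to -0.0124 with marked spots kept. The number of genes of the set other than Dppa5a past the threshold in homozygous against other embryos, 0 as reported, was 1 with the Y-linked covariate (Dnd1) and 0 to 2 on leaving out 1 embryo (Dnd1 and Ddx4 without embryo 7). It stayed at 0 in the 3 other comparisons under the alternatives run. The median difference of all probes was -0.06 as reported, -0.22 after scaling to medians and -0.25 in the deposited table. In the last 2 settings Dnd1 was at -0.71 and -0.74 and Ddx4 at -0.70 and -0.74. Both genes are dim, and the median of dim probes, -0.16 as reported, was not computed for those 2 settings. The number of probes past the threshold moved between 5 and 314 over the alternatives. Signal over background limits Dppa5a, Dppa2, Dppa3 and Dazl. The array files give no slide or scan that holds over 1 array, so that block was not run. No paired analysis was possible because embryo numbers are identities that no 2 genotypes share.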
